A study of Saccharomyces cerevisiae with 4 samples.

Results

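The Hsp90 chaperone system of budding yeast was examined here as the 10 genes HSP82, HSC82, STI1, CNS1, CPR6, CPR7, AHA1, HCH1, SBA1 and CDC37, found by gene name among 7126 features of the deposited tables. Reads came from PAR-CLIP of Mip6, an RNA-binding protein, in which cells take up 4-thiouracil and light at 365 nm crosslinks the labelled RNA to protein. All cells were Saccharomyces cerevisiae of a strain in which Mip6 carries an HTB tag, a tag that allows purification on nickel and streptavidin beads. Cells of the heat-stressed group were moved to 39 °C for 20 min, and those of the other group stayed at 30 °C. Both groups had 4-thiouracil for 45 min, of which the heat-stressed cells spent the last 20 min at 39 °C, and then 15 min of irradiation. Each temperature has separate samples for the minus and the plus strand, which together make 1 library. With 1 library per temperature there are no replicates, so the temperatures were compared without a test or p-value. The samples hold neither input RNA nor an untagged strain, so the amount of an mRNA and its crosslinking to Mip6 cannot be told apart.

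Hsp90 is an ATP-driven chaperone that acts late in folding on a limited range of client proteins, many of them kinases and transcription factors. Clients reach it from Hsp70, and co-chaperones then steer its ATPase cycle. Yeast makes nearly identical Hsp90 proteins from a heat-inducible gene, HSP82, and a constitutive gene, HSC82, and needs at least 1 of them to live. Sti1 joins Hsp70 to Hsp90, Aha1 and the shorter related Hch1 stimulate the ATPase, Sba1 (p23) holds the closed state, and Cdc37 brings kinases. Sti1, Cns1 and the cyclophilins Cpr6 and Cpr7 dock through tetratricopeptide repeats on the tail of Hsp90. In yeast, heat shock factor Hsf1 drives many chaperone genes of this system.

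The 39 °C library held 6950540 reads in features and the 30 °C library 11657228. Values below are reads on the gene's own strand, given as CPM (the usual scaling of a count to its library's total, here all reads in features) or as CPM per kb of feature. In each file, 88.5% to 91.4% of the reads in features named for a strand lay in features of that file's strand. A count of 0 would allow 0.432 CPM at 39 °C and 0.257 CPM at 30 °C. Each of the 10 genes had at least 594 own-strand reads in each library, and all passed the minimum of 20 reads over both libraries that 6162 features with a strand in their name passed. Intervals are exact 95% intervals for counting error alone, with each read taken as independent. The sources used here do not say whether PCR duplicates were removed, and such copies would make the intervals too narrow.

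Own-strand CPM was higher at 39 °C for 6 of the 10 genes and lower for 4. All measured features also split nearly evenly, with a median log2 ratio of -0.03, so this count alone does not set the system apart. Own-strand CPM was at least 2-fold higher at 39 °C for 5 of the 10 genes, namely CPR6, HSP82, STI1, AHA1 and HSC82, against 4.4% of all measured features. None was 2-fold lower, against 2.69% of all measured features, and 5 lay within 2-fold. HCH1 was higher by less than 2-fold, while CDC37, CPR7, CNS1 and SBA1 were lower. The counting interval lay above equality for 6 genes and below it for 4. At these read numbers it excludes equality even for small differences, such as CDC37 with -0.08 (-0.15 to -0.01). The share of all measured features for which it does so was not computed. The median log2 ratio of 39 °C over 30 °C was 0.82 over the 10 genes and -0.03 over all measured features. No gene lay near this 0.82, which falls between HCH1 with 0.63 and HSC82 with 1.02. Without HSP82 and HSC82, the median of the 8 co-chaperone genes was 0.27.

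**Figure D1:**
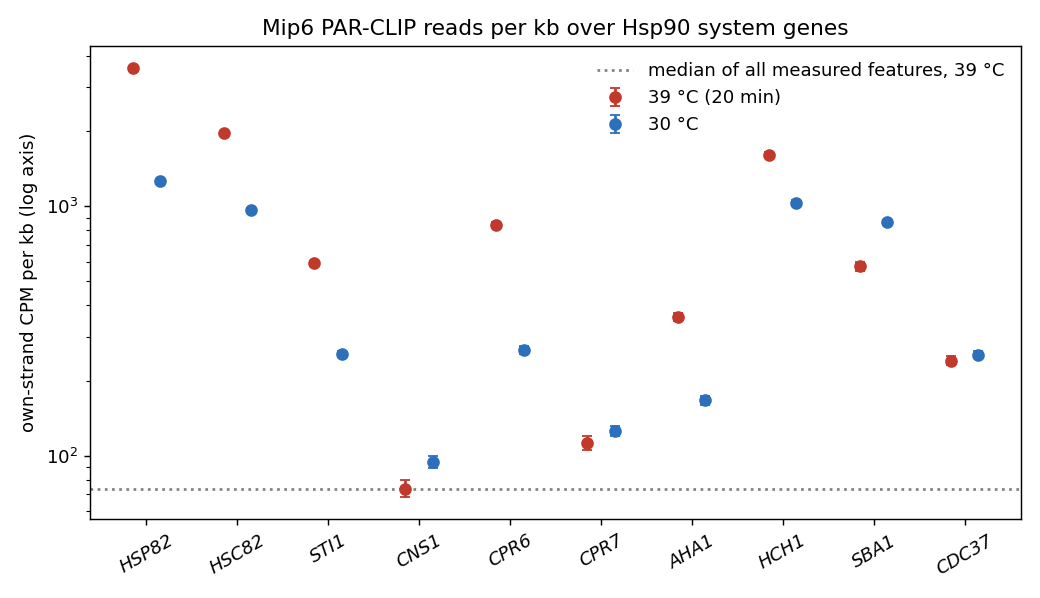
Own-strand CPM per kb of each gene (log axis) at 39 °C (red, left) and 30 °C (blue, right), 1 library per temperature, with exact Poisson 95% intervals for counting error, most of them smaller than the points. HSP82 stood at 3571 CPM per kb at 39 °C and 1265 at 30 °C, while SBA1 had 574 at 39 °C and 863 at 30 °C.

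HSP82, the inducible Hsp90 gene (YPL240C, minus strand, chromosome XVI, 96496 to 98625, build R64), had 52866 own-strand reads at 39 °C and 31413 at 30 °C. This was 7606 CPM at 39 °C (95% interval 7541 to 7671) and 2695 CPM at 30 °C (2665 to 2725), with a log2 ratio of 1.50 (1.48 to 1.52). None of the other measured features had a higher own-strand CPM in either library. The 441 features without a strand in their name were not ranked. Per kb its place was 5 of 6162 at 39 °C and 71 at 30 °C.

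HSC82, the constitutive Hsp90 gene (YMR186W, plus strand, chromosome XIII, 632355 to 634472), had 28919 own-strand reads at 39 °C and 23913 at 30 °C. Its level was 4161 CPM at 39 °C (4113 to 4209) and 2051 CPM at 30 °C (2025 to 2078), and its log2 ratio was 1.02 (1.00 to 1.05). The constitutive gene was thus also higher at 39 °C, close to the 2-fold limit, and the interval of its ratio included exactly 2-fold. With reads outside features counted in the library totals its log2 ratio was 0.97, and 4 of the 10 genes then passed 2-fold.

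Per kb, HSP82 had 1.82 times the reads of HSC82 at 39 °C (1.79 to 1.84) and 1.31 times at 30 °C (1.28 to 1.33). The log2 ratio of HSP82 exceeded that of HSC82 by 0.48 (0.44 to 0.51), which corresponds to a 1.39-fold larger ratio. This excess was smaller than the log2 ratio of either gene. The coding sequences are closely related, and no source used here says how the authors placed reads that match both genes. The summary line for reads without a unique alignment holds 0 in all 4 files. The division of reads between HSP82 and HSC82 is therefore uncertain. Their sum was 11767 CPM at 39 °C and 4746 CPM at 30 °C.

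**Figure D2:**
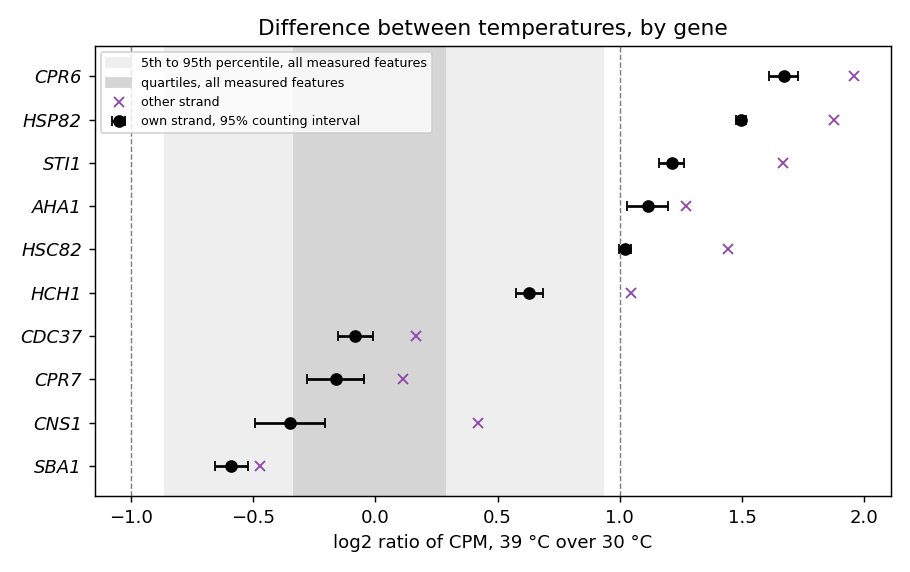
Log2 ratio of CPM, 39 °C over 30 °C, for each gene from own-strand reads (black, with exact 95% counting intervals) and from reads of the other strand (crosses). Grey bands give the quartiles (-0.33 to 0.28) and the 5th to 95th percentile (-0.86 to 0.93) of all measured features, and dashed lines mark 2-fold. CPR6, HSP82, STI1, AHA1 and HSC82 lay beyond the band and the dashed line, and SBA1 was lowest.

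Among the tetratricopeptide adaptors, STI1 and CNS1 went apart. STI1, the link between Hsp70 and Hsp90 (YOR027W, chromosome XV, 381053 to 382822), had 7270 own-strand reads at 39 °C and 5265 at 30 °C. It stood at 1046 CPM at 39 °C (1022 to 1070) and 452 CPM at 30 °C (440 to 464), with a log2 ratio of 1.21 (1.16 to 1.26). CNS1, an essential adaptor that binds Hsp90 (YBR155W, chromosome II, 549771 to 550928), was the least read of the system, with 594 reads at 39 °C and 1269 at 30 °C. Its 85.5 CPM at 39 °C (78.7 to 92.6) lay below its 109 CPM at 30 °C (103 to 115), with a log2 ratio of -0.35 (-0.49 to -0.21). Per kb, STI1 had 8.01 times the reads of CNS1 at 39 °C (7.36 to 8.72) and 2.71 times at 30 °C (2.55 to 2.89). The difference of the log2 ratios was 1.56 (1.41 to 1.71).

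The Hsp90-bound cyclophilins, which pair a prolyl isomerase with a tetratricopeptide domain, showed the widest contrast in log2 ratio of the 4 pairs compared. CPR6, the heat-inducible one (YLR216C, minus strand, chromosome XII, 572096 to 573211), had 6549 own-strand reads at 39 °C and 3451 at 30 °C. It reached 942 CPM at 39 °C (920 to 965) against 296 CPM at 30 °C (286 to 306), with a log2 ratio of 1.67 (1.61 to 1.73), the highest of the 10 genes. Of all measured features, 0.974% had a higher ratio. CPR7, its constitutive relative (YJR032W, chromosome X, 491081 to 492262), had 923 reads at 39 °C and 1730 at 30 °C. Its 133 CPM at 39 °C (124 to 142) and 148 CPM at 30 °C (141 to 156) gave a log2 ratio of -0.16 (-0.28 to -0.04), inside the quartiles of all measured features. Per kb, CPR6 exceeded CPR7 by 7.51 times at 39 °C (7.01 to 8.06) and by 2.11 times at 30 °C (1.99 to 2.24), and the log2 ratios differed by 1.83 (1.70 to 1.96).

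**Figure D3:**
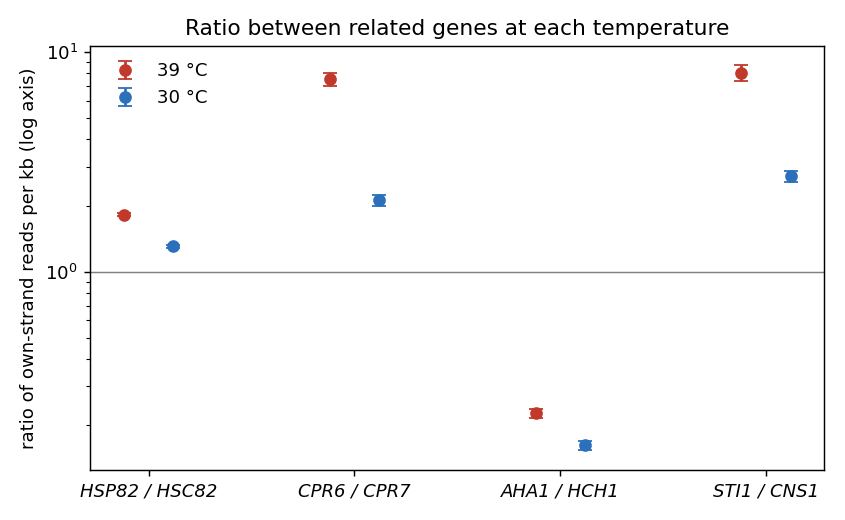
Ratio of own-strand reads per kb (log axis) between related genes, at 39 °C (red, left) and at 30 °C (blue, right), with exact 95% counting intervals; the grey line marks equal reads. CPR6 over CPR7 stood at 7.51 at 39 °C and 2.11 at 30 °C, while HSP82 over HSC82 moved less, with 1.82 and 1.31.

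Both ATPase activators had a higher CPM at 39 °C. AHA1 (YDR214W, chromosome IV, 892875 to 893927) had 2640 own-strand reads at 39 °C and 2045 at 30 °C, or 380 CPM (365 to 395) and 175 CPM (168 to 183). Its log2 ratio was 1.11 (1.03 to 1.20). HCH1 (YNL281W, chromosome XIV, 108467 to 108928), whose protein resembles the front part of Aha1, had 5133 reads at 39 °C and 5564 at 30 °C, or 739 CPM (718 to 759) and 477 CPM (465 to 490). Its log2 ratio was 0.63 (0.57 to 0.68), so it was higher at 39 °C by 1.55-fold. The ratio of AHA1 exceeded that of HCH1 by 0.48 on the log2 scale (0.38 to 0.59). HCH1 had the higher level of the pair at both temperatures. Per kb, AHA1 had 0.226 times the reads of HCH1 at 39 °C (0.215 to 0.237) and 0.161 times at 30 °C (0.153 to 0.170).

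SBA1 and CDC37 were not higher at 39 °C. SBA1, the p23 co-chaperone that stabilises ATP-bound Hsp90 (YKL117W, chromosome XI, 220324 to 220974), had 2598 own-strand reads at 39 °C and 6550 at 30 °C. Its level was 374 CPM at 39 °C (360 to 388) and 562 CPM at 30 °C (548 to 576), and its log2 ratio of -0.59 (-0.65 to -0.52) was the lowest of the 10 genes. At 30 °C SBA1 had more CPM than STI1, HCH1 or CPR6, and at 39 °C it had fewer than each of these. CDC37, the kinase-specific co-chaperone (YDR168W, chromosome IV, 790328 to 791848), had 2540 reads at 39 °C and 4506 at 30 °C. Its 365 CPM at 39 °C (351 to 380) and 387 CPM at 30 °C (375 to 398) gave a log2 ratio of -0.08 (-0.15 to -0.01). This lay close to the -0.03 of the median feature.

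Per kb, the order at 39 °C was HSP82 with 3571 CPM per kb, HSC82 with 1964, HCH1 with 1598, CPR6 with 844, STI1 with 591 and SBA1 with 574. AHA1 with 361, CDC37 with 240, CPR7 with 112 and CNS1 with 73.8 CPM per kb followed. The counting intervals of STI1 and SBA1 overlapped and those of the other neighbours did not. At 30 °C the order was HSP82 with 1265 CPM per kb, HCH1 with 1033, HSC82 with 969, SBA1 with 863, CPR6 with 265, STI1 with 255 and CDC37 with 254. AHA1 with 167, CPR7 with 126 and CNS1 with 94.0 CPM per kb came last. There, CPR6, STI1 and CDC37 overlapped with their neighbours in that run. The median over all measured features was 73.5 CPM per kb at 39 °C and 74.1 at 30 °C. CNS1 lay near that median at 39 °C and the other 9 genes above it. The highest level was 48.4 times the lowest at 39 °C and 13.5 times at 30 °C.

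The 10 genes together held 1.58% of reads in features at 39 °C (1.57 to 1.59, Clopper-Pearson) and 0.735% at 30 °C (0.730 to 0.740). HSP82 and HSC82 made up 74.3% of these reads at 39 °C and 64.6% at 30 °C. Of the summed difference of 8479 CPM between the libraries, HSP82 gave 57.9% and both Hsp90 genes 82.8%. The 8 co-chaperone genes added up to 4395 CPM per kb at 39 °C and 3057 at 30 °C, against 5535 and 2234 CPM per kb for the Hsp90 genes. Per kb, the co-chaperone sum was therefore 0.794 times the Hsp90 sum at 39 °C and 1.37 times at 30 °C. The short features HCH1 (462 bases) and SBA1 (651 bases) weigh heavily in this sum, with 1033 and 863 CPM per kb at 30 °C. Without division by length, the co-chaperone genes had the smaller sum at both temperatures. It was 4064 CPM at 39 °C and 2606 at 30 °C, against 11767 and 4746 CPM for the Hsp90 genes.

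Set against the Hsp90 sum per kb, single co-chaperones differed in how their proportion compared between temperatures. STI1 stood at 10.7% of it at 39 °C and 11.4% at 30 °C, and AHA1 at 6.52% and 7.46%. CPR6 had a larger proportion at 39 °C, 15.3% against 11.9% at 30 °C. HCH1 stood at 28.9% at 39 °C and 46.3% at 30 °C, SBA1 at 10.4% and 38.6%, and CDC37 at 4.34% and 11.4%. CPR7 had 2.03% at 39 °C and 5.62% at 30 °C, and CNS1 had 1.33% and 4.21%. The Hsp90 sum itself was higher at 39 °C, with 5535 CPM per kb against 2234 at 30 °C. A smaller proportion at 39 °C therefore need not mean fewer reads. STI1, AHA1 and HCH1 had smaller proportions there but a higher CPM. These are proportions of reads and not of protein.

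**Figure D4:**
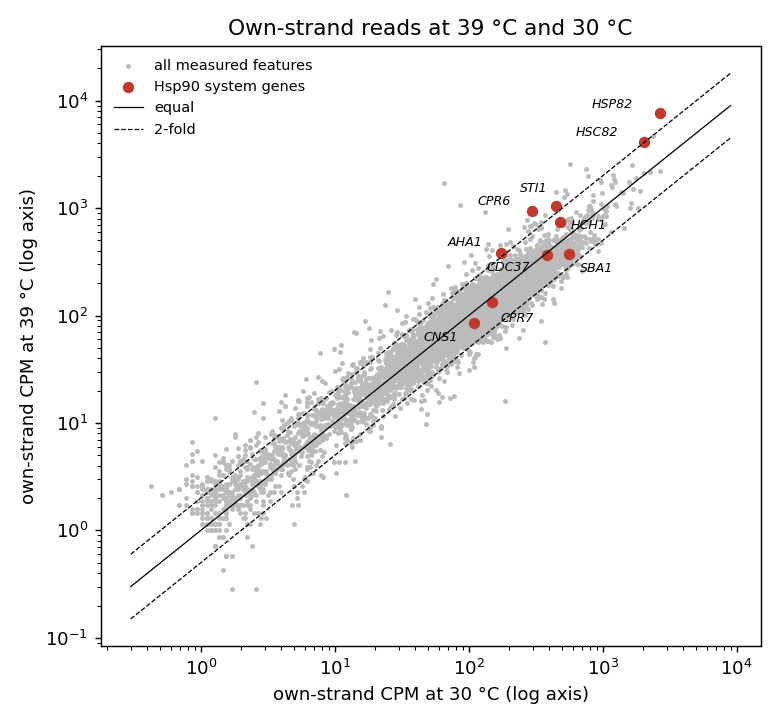
Own-strand CPM at 39 °C (vertical) against 30 °C (horizontal), both on log axes, for the measured features with reads in both libraries (grey) and the 10 Hsp90 system genes (red); the solid line marks equal CPM and the dashed lines 2-fold. HSP82, at 7606 CPM in the 39 °C library and 2695 CPM in the 30 °C library, is the point furthest to the upper right.

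Outside the 10 genes, the features nearest to HSP82 and HSC82 also had a high own-strand CPM at both temperatures, which nearness to such levels requires. By distance in log2 own-strand CPM over the 2 libraries, HSP104, the disaggregase gene, was nearest to HSC82 at 0.28, having 4728 CPM at 39 °C against 2384 CPM at 30 °C. The Hsp70 gene SSA1 followed at 0.78 and the zinc transporter gene ZRT1 at 0.94. HSP82 lay further from its nearest genes outside the system, with HSP104 at 0.71, SSA1 at 1.74 and the glycolytic gene TPI1 at 1.79. With 2 libraries, this likeness is one of level and ratio only.

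Reads on the strand opposite the gene were few in all 10 genes, between 3.03% and 7.33% of a gene's reads. For comparison, the median measured feature had 8.08% at 39 °C and 6.01% at 30 °C. HSP82 had 3115 such reads at 39 °C and 1422 at 30 °C, with a log2 ratio of 1.88 (1.79 to 1.97) that exceeded its own-strand ratio. HSC82 had 1495 at 39 °C and 922 at 30 °C, with a log2 ratio of 1.44 (1.32 to 1.56). The other-strand ratio was above the own-strand ratio in all 10 genes, by 0.33 in the median. The same held for 80.6% of 6037 features with at least 20 other-strand reads, with a median of 0.43. For CNS1 the signs differed, with 47 other-strand reads at 39 °C and 59 at 30 °C, with a log2 ratio of 0.42 (-0.17 to 1.00). CDC37 and CPR7 also had other-strand ratios above 0, of 0.17 (-0.18 to 0.51) and 0.11 (-0.47 to 0.67), with intervals that include 0.

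No annotated gene of RefSeq assembly R64 overlaps any of the 10. The count files also list YLR217W, next to CPR6 by its systematic number and without an entry in that annotation. It is named for the plus strand. On the minus strand, that of CPR6, lay 154 of its 161 reads at 39 °C and 95 of its 97 at 30 °C. Their log2 ratio was 1.44 (1.06 to 1.83). Next to SBA1, YKL118W had 187 of 224 reads at 39 °C and 394 of 460 at 30 °C on the strand opposite its own name and SBA1, with a log2 ratio of -0.33 (-0.59 to -0.07). Coordinates of both were not used here, and whether reads shared with CPR6 or SBA1 were set aside as ambiguous was not tested.

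The authors' deposited table calls 6 of the 10 genes up at 39 °C, against 3.05% of the 6918 features that have a ratio there. It calls none of the 10 down, and the share of features called down is not given here, so nothing is read from that count. The 6 are HSP82, HSC82, STI1, CPR6, AHA1 and HCH1, the last with a probability score of 0.908. SBA1, with a probability score of 0.892 in the authors' deposited table, lies just under the lowest score of a called feature, 0.900. The direction of the authors' deposited table was taken as 30 °C over 39 °C. Its ratios for the 10 genes have the opposite sign to the count ratios of 39 °C over 30 °C. All 211 features called up have a negative value there. The ratio is -1.55 for HSP82, -1.78 for CPR6 and 0.55 for SBA1 in the authors' deposited table. From the counts these genes had 1.50, 1.67 and -0.59.

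**Figure D5:**
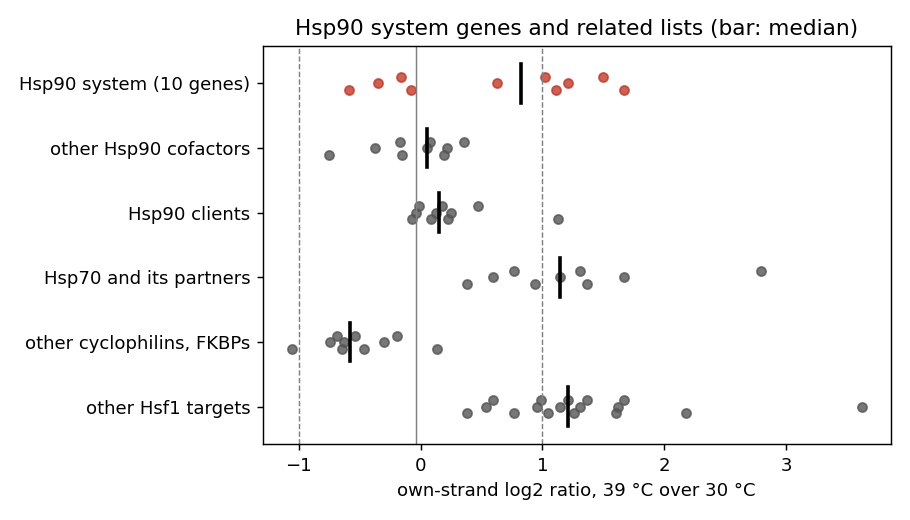
Own-strand log2 ratio, 39 °C over 30 °C, of each gene (points) in the Hsp90 system (red) and in 5 related lists (grey), with the list median as a black bar; the thin grey line is the median of all measured features and dashed lines mark 2-fold. Medians were 0.82 for the Hsp90 system, 0.05 for other Hsp90 cofactors, 0.15 for clients and 1.15 for Hsp70 and its partners.

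The other genes of the pathway were taken as lists, whose counts stand beside the 4.4% of all measured features that were 2-fold higher and the 2.69% that were 2-fold lower. Of 9 further cofactors, none was 2-fold higher and none 2-fold lower, counts that lie near those shares, and their median log2 ratio was 0.05. TTI1 with 0.36 (0.25 to 0.46) and SGT1 with 0.22 (0.08 to 0.35) were highest. Tti1 works with Hsp90 in the assembly of large kinases, and Sgt1 is an adaptor for kinetochore and ubiquitin ligase clients. TAH1, a subunit of the R2TP complex that docks on Hsp90, was lowest with -0.75 (-0.92 to -0.59). The helicase gene RVB1 of the same complex had -0.38 (-0.44 to -0.31).

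Among 10 genes for Hsp90 clients, 1 was 2-fold higher and none was 2-fold lower, against shares of 4.4% and 2.69% over all measured features. A count of 1 gene is too small to read anything from. Their median log2 ratio was 0.15. The higher gene was SLT2, the kinase of the cell wall integrity pathway, at 196 CPM in the 39 °C library against 89.6 CPM in the 30 °C library, with a log2 ratio of 1.13 (1.01 to 1.24). HSF1, which codes for the heat shock factor that Hsp90 and Hsp70 restrain, had 111 CPM at 39 °C against 79.7 CPM at 30 °C, with a log2 ratio of 0.47 (0.33 to 0.61). Most reads over HSF1 lay on the strand opposite the gene, 60.9% at 39 °C and 57.0% at 30 °C. The median measured feature had 8.08% and 6.01%, so the own-strand value of HSF1 covers the smaller part of its reads. GCN2, the eIF2 kinase, with -0.07 (-0.18 to 0.04) and CMP2, a calcineurin catalytic subunit gene, with -0.04 (-0.19 to 0.11) were lowest, and both intervals include 0.

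The cyclophilin and FKBP genes outside the Hsp90 system, which code for the other prolyl isomerases of these families, all had ratios below that of CPR6. Of 10, none was 2-fold higher and 1 was 2-fold lower, against shares of 4.4% and 2.69% over all measured features. Nothing is read from a count of 1 gene. Their median log2 ratio was -0.58, against -0.03 over all measured features. FPR1, the rapamycin-binding FKBP, had 99.0 CPM at 39 °C against 206 CPM at 30 °C, with a log2 ratio of -1.06 (-1.18 to -0.94). FPR2 had -0.74 (-0.86 to -0.63). CPR4 with 0.13 (-0.10 to 0.36) and CPR8 with -0.19 (-0.35 to -0.04) were highest. CPR7, at -0.16, lay near the upper end of this group's range, and CPR6 lay above it.

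The Hsp70 genes and partners that hand clients to Hsp90 had a median log2 ratio of 1.15 over 9 genes, of which 5 were 2-fold higher and none lower. SSA3 with 2.79 (2.71 to 2.87) and the exchange factor gene FES1 with 1.67 (1.62 to 1.72) were highest, and SSA1 with 0.59 (0.56 to 0.62) and SSE1 with 0.38 (0.33 to 0.42) lowest. Of 17 further Hsf1 targets, which share 7 genes with that list, 11 were 2-fold higher and none lower, with a median of 1.21. They ran from SSE1, followed by HSP10 with 0.54 (0.49 to 0.58), to HSP26 with 2.18 (2.14 to 2.22) and BTN2 with 3.62 (3.53 to 3.72). The ratios of HSP82, HSC82, STI1, CPR6, AHA1 and HCH1 fell inside that range. Those of CDC37, CPR7, CNS1 and SBA1 fell below its lower end of 0.38. That range is only the lowest to highest ratio of a chosen list. Its lower end lay close above 0.28, the upper quartile of all measured features. How many measured features fell inside the range was not computed, so nothing is read from this division about control by Hsf1.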

How the data were processed

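Each deposited file gives raw read counts by feature, and its 5 HTSeq summary rows were left out of totals. The submitters' processing notes name the tools Bowtie 1.1.1 and HTSeq and the builds sacCer3 and R64. The sources used here do not state the mismatch filter, the strandedness of counting or any duplicate removal. Reads in no feature made up 22.3% to 24.7% of a file. Ambiguous reads made up 13.3% at 39 °C and 9.94% at 30 °C of the minus-strand files. In the plus-strand files they made up 4.51% at 39 °C and 3.92% at 30 °C. HSP82 and CPR6 lie on the minus strand and the other 8 genes on the plus strand. Whether ambiguous reads were lost from these genes was not tested. From the authors' deposited table the log2 ratio, the probability score and ranking score, the feature length and the call were available; 2 columns of values per library match no label and were not used.

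A feature's own strand was read from its systematic name, which 6685 of 7126 features allowed. Own-strand counts were divided by the reads in features of both strand files of a temperature, and log2 ratios were taken with 0.5 reads added. Features with at least 20 own-strand reads over both libraries were compared with a limit of 2-fold. Ratio intervals are exact conditional binomial intervals, levels have exact Poisson intervals, and differences between log2 ratios have the exact conditional interval of the odds ratio (scipy 1.17.1). Coordinates come from RefSeq assembly R64. Alternatives included TMM factors (edgeR 4.0.16) and size factors (DESeq2 1.42.0). The calculation was tested on simulated counts. Genes named from lists are the 2 of highest and 2 of lowest ratio; the 10 genes and the lists were chosen with earlier results of these data known.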

Additional observations from a re-analysis of the deposited data

How the results depend on the processing

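Under 10 alternatives, 5 of the 10 genes were at least 2-fold higher at 39 °C, except that 4 were when all counted reads served as the library total. The median log2 ratio of the 10 genes, 0.825 as reported, was 0.874 with the own-strand total, 0.771 with all counted reads and 0.874 from the authors' deposited table with its sign turned. The excess of HSP82 over HSC82 was 0.442 with the total of each strand file, because these genes lie on opposite strands. Of 80 recomputed ratios of single genes, 68 stayed inside their counting interval, 12 lay outside it and 0 changed sign. Depth limits most the other-strand ratios, which rest on as few as 45 reads for a gene. With 1 library per temperature, the difference between cultures is not measured by any interval here. No paired analysis was possible because each temperature has 1 library.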
